A study of Mus musculus with 8 samples.

Results

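The genes described here are 40 genes of DNA replication and mitosis, taken by symbol from the deposited table of normalised read counts of embryonic mouse kidneys. All 40 were found among the 23337 genes of the table, and all 40 passed the filter for testing, a mean normalised count of at least 10. RNA came from kidneys at E13.5 (days of embryonic development) of embryos on a mixed C57BL/6 background, in 2 groups of 4 libraries. Mutant kidneys were Foxd1Cre;Smo(flox/-), with Cre recombinase driven in the Foxd1-expressing progenitors of the renal stroma, 1 floxed and 1 null copy of Smo. Control kidneys were Smo(flox/+), with 1 floxed and 1 wild type copy and no Cre named in the labels. The floxed copy was thus common to both groups, while the labels name the null copy, which every cell carries, and the Cre allele for the mutants alone. Embryos came from a cross of Foxd1Cre(Smo+/-) with Smo(flox/flox) mice. Whether a library was 1 embryo or a pool, and which litters were used, is not stated, so the p-values speak only for the spread among these libraries, which may be technical. The tissue was the whole kidney, where fewer cells of a type and less RNA per cell cannot be told apart. The values are scaled within each library and give no number of cells per kidney.

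Smo encodes Smoothened, which passes the hedgehog signal across the membrane. In many tissues that signal raises the expression of D-type cyclins and so brings cells into the cycle. A cell that enters the cycle loads the MCM helicase onto replication origins with Cdc6 and Cdt1, makes deoxynucleotides, copies its DNA in S phase and then builds the spindle and the kinetochores that part the chromosomes. The genes for S phase are switched on by E2F factors, and those for mitosis later by the B-Myb and FoxM1 complexes, so the transcripts of the 2 classes serve as a measure of how much of a tissue is in the cycle. In the embryonic kidney, nephron progenitors, ureteric tip cells and stromal progenitors all divide. Loss of Smo in the stroma leaves the question whether the transcripts of the cycle differ in the organ as a whole.

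Promoters of many of these genes carry short sequence elements, some of them far more frequent in 1 of the 2 classes than in the other. Shown are 4 promoters rich in the elements searched. Mcm6 had the most E2F words (3) and Mcm7 was 1 of 3 genes with 2, while Top2a and Ube2c held the most CHR and CCAAT words together (8 and 7). Windows run from 250 bases before to 50 after the annotated start, from RefSeq on GRCm38.p6, and 32 of the 40 genes matched. The words searched, on both strands, were TTTCCCGC, TTTGGCGC, TTTCGCGC and TTTGCCGC for E2F, TTTGAA for the CHR (the cell cycle genes homology region, bound by MuvB complexes) and CCAAT (bound by NF-Y). Words may overlap, as TTTGGCGC does with GCGCGAAA in Mcm6. Capitals mark the E2F words in the replication genes Mcm6 (chr1:128359656-128359955, minus strand) and Mcm7 (chr5:138171834-138172133, minus strand), and the CHR and CCAAT words in the mitosis genes Top2a (chr11:99024140-99024439, minus strand) and Ube2c (chr2:164769679-164769978, plus strand).
Mcm6: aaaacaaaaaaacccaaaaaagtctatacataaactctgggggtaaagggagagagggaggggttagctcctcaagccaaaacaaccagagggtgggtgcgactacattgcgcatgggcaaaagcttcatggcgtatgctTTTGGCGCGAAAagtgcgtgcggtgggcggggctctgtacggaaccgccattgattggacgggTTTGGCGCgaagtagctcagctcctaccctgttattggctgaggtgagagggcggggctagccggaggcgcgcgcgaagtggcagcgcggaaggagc
Mcm7: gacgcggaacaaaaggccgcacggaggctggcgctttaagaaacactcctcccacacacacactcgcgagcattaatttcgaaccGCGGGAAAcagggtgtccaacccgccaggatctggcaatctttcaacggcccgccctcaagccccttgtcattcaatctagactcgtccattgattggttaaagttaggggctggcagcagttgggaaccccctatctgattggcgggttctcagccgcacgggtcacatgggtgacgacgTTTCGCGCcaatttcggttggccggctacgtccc
Top2a: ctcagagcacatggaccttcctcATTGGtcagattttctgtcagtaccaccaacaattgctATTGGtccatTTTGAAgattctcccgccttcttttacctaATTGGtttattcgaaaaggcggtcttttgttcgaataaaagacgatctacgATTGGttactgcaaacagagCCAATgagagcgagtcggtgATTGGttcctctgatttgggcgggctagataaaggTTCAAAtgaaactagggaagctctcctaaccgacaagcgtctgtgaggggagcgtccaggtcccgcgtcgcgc
Ube2c: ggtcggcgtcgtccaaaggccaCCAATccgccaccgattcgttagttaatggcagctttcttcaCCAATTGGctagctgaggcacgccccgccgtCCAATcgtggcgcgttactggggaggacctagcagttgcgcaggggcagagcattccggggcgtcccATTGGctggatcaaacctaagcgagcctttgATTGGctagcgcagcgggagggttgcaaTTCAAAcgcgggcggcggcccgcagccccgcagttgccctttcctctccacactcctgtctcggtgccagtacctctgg
An E2F word was present in 7 of 13 promoters of replication and S phase genes (53.8%), in 1 of 19 promoters of mitosis genes (5.26%) and in 2.60% of 27025 genes with a window. The 7 were Mcm3, Mcm5, Mcm6, Mcm7, Cdc6, Cdt1 and Cdk2, and the mitosis gene was Cdk1. The CHR word was present in 1 of 13 promoters of replication and S phase genes (7.69%), that of Mcm2, in 14 of 19 promoters of mitosis genes (73.7%) and in 20.2% of all genes with a window. A CCAAT word was found in 69.2% of the replication and S phase promoters, in 84.2% of the mitosis promoters and in 41.1% of all. A match is a description of the letters and says nothing of binding in these kidneys.

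Libraries held 10288191 to 13494079 reads in genes, and the means of the 40 genes ran from 357 for Cdc25c to 9074 for Top2a. Counting error alone gives an SD of 0.077 on the log2 scale for Cdc25c and 0.015 for Top2a. The label check was met in every library. Smo stood at 553, 538, 550.0 and 509 normalised counts in mutants 1 to 4, against 2230, 2290, 2294 and 2152 in controls 1 to 4, or -2.06 on the log2 scale (SE 0.041, adjusted p = 1.87e-10). Markers of nephron progenitors summed to 12501 to 12715 in mutant and 10143 to 11862 in control kidneys, and markers of the stroma to 12722 to 15414 and 16439 to 18683, each with no overlap. The stroma markers include Foxd1, the gene whose promoter drives Cre in the mutants. Foxd1 averaged 593 ± 137 in mutant and 1477 ± 473 in control kidneys (log2 fold change -1.29, adjusted p = 0.0251 by limma). The 16 markers of skeletal muscle, a tissue outside the kidney, summed to 977 to 3343 in mutant and 837 to 4796 in control libraries, highest in mutant 2 and control 2, with at most 1 of the 16 at 0 in a library (Acta1 or Ckm). The 8 liver markers summed to 83.8 to 243 in mutants and 76.2 to 887 in controls, highest in control 1, with at most 2 of the 8 at 0. The 10 macrophage markers summed to 423 to 759 in mutants and 608 to 1145 in controls, the red cell markers to 6247 to 12217 and 5811 to 11812, and the ureteric bud markers to 4587 to 6298 and 4270.5 to 5557. The part of these differences in tissue make-up in the values below was not tested unless a value is given.

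No difference between mutant and control kidneys passed the test in any of the 40 genes. By limma with Benjamini-Hochberg adjustment over 13692 tested genes, 0 of the 40 were called, where 0.570% of all tested genes were (78 genes, 0.124% higher and 0.446% lower in mutants). The adjusted p ran from 0.551 for Mcm3 to 0.995. An unadjusted p under 0.05 was reached by 1 of the 40 (Mcm3), against 8.70% of all tested genes. The count tests edgeR and DESeq2 also called 0 of the 40, while they called 0.577% and 1.56% of all tested genes. At an unadjusted p under 0.05 they too gave 0 of the 40, against 8.76% (edgeR) and 6.68% (DESeq2) of all tested genes. In no gene of the 40 did the 4 mutant libraries lie apart from the 4 control libraries, which 5.31% of all tested genes did. The authors' deposited table gives 0 of the 40 an adjusted p under 0.05, with a smallest unadjusted p of 0.111.

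A p that misses the threshold does not show equal levels, and the intervals give the sizes of difference that fit these libraries. Fold changes ran from -0.071 (Ccne2) to 0.089 (Mcm7) on the log2 scale of normalised count + 1. Across the 40 genes, the lowest bound of a 95% interval was -0.17, or 0.887-fold, for Ccne2, and the highest was 0.20, or 1.15-fold, for Cdc6. Every one of the 40 intervals therefore lay within 1.25-fold in either direction, as did 62.6% of those of all tested genes and 92.9% of those of the 6639 tested genes in the same range of level. Intervals this narrow were thus common among genes at this level. The median within-group SD on the log2 scale was 0.055 for the 40 genes, 0.071 for tested genes in their range of level and 0.11 for all tested genes, and 31 of the 40 lay under the median of the genes in their range. Counting error alone was as large as the within-group SD or larger in 6 of the 40 (Cdt1, Ccne2, Cdk1, Cdk2, Tpx2 and Foxm1), as for Ccne2, with 0.062 from counting beside an SD of 0.044.

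**Figure D1:**
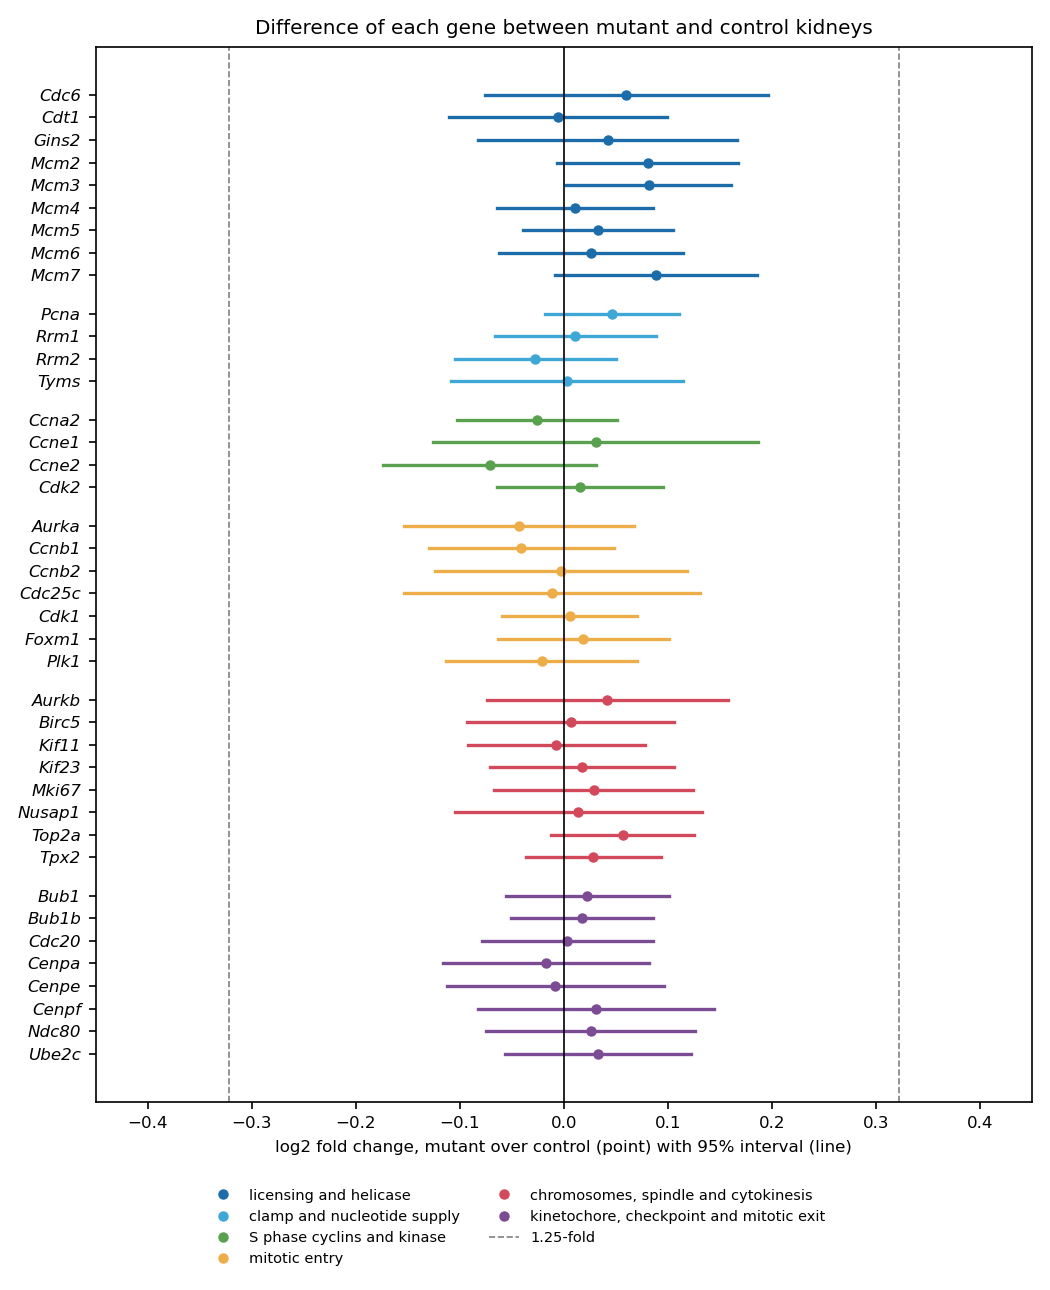
Log2 fold change of mutant over control (points) with 95% intervals (lines) for the 40 genes in 6 role groups, with dashed lines at 1.25-fold. All 40 intervals lie inside the dashed lines, and that of Mcm3 alone excludes 0, before adjustment.

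The highest fold changes of the 40 genes were those of Mcm7, Mcm3, Mcm2 and Cdc6, of the helicase and licensing group, though none was called. The MCM proteins, encoded by Mcm2 to Mcm7, form the ring that unwinds DNA at the fork. Mcm3 (chr1:20802968-20820312) stood at 2825, 2919, 2810 and 2941 in mutants 1 to 4, against 2769, 2588.5, 2672 and 2837.5 in controls 1 to 4. Mutant 3 was the lowest mutant and control 4 the highest control, and the groups overlapped there. Mcm3 averaged 2874 ± 65.7 in mutant and 2717 ± 109 in control kidneys (SD, n = 4 each), a difference of 0.082 on the log2 scale (SE 0.036, unadjusted p = 0.0442, adjusted p = 0.551).

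Mcm2 (chr6:88883474-88898780) stood at 2670.0, 2703, 2714 and 2884 in mutants 1 to 4, against 2616.5, 2506, 2506 and 2746 in controls 1 to 4. Mutant 4 was highest, and control 4 lay above 3 of the 4 mutants. Its log2 fold change was 0.081 (SE 0.040, adjusted p = 0.624). Mcm2 is on the chromosome of Smo but 59.1 Mb away from it. Mcm7 (chr5:138164583-138172422) stood at 3121, 3246, 3057 and 3121 in mutants, against 2997, 2700.1, 2980.1 and 3133 in controls. Control 2 was the lowest library, and control 4 lay above 3 mutants. The log2 fold change of Mcm7 was 0.089 (SE 0.044, adjusted p = 0.632). Exons of Mcm7 overlap those of Ap4m1 and Cops6 on the opposite strand, so some of its reads cannot be told apart if strand was not used in counting. The same holds for Ccne2 with Ints8, Ccna2 with Exosc9, Cdk2 with Pmel, Gins2 with Gse1, Cdc20 with Elovl1 and Nusap1 with Oip5, and their values are uncertain to that extent.

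Mcm5 (chr8:75109569-75128439) stood at 2783, 2794, 2665 and 2746 in mutants, against 2770, 2673, 2586 and 2713 in controls, and its log2 fold change was 0.033 (SE 0.033, adjusted p = 0.860). Mutant 3 and control 3 were lowest in their groups, and the ranges overlapped over most of their length. Cdc6 (chr11:98907801-98923940), which loads the helicase together with Cdt1, stood at 691, 727, 683 and 751 in mutants, against 648, 687, 638 and 767 in controls. Control 4 was the highest of all 8 libraries. The fold change of Cdc6 on the log2 scale was 0.060 (SE 0.062, adjusted p = 0.868). The remaining members of the group were Mcm4 (log2 fold change 0.011), Mcm6 (0.026), Cdt1 (-0.0054), and Gins2 (0.042), a subunit of the GINS complex that activates the helicase, with adjusted p from 0.909 to 0.987. Of the 9 genes in the group 8 had a positive fold change, with a median of 0.042, beside 51.9% of all tested genes and 56.4% of those in the same range of level. Leaving out 1 library, the count ran from 7 to 9.

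The sliding clamp and the enzymes of nucleotide supply did not separate the groups either. Pcna (chr2:132249162-132253314), the clamp that holds polymerases on DNA, stood at 4085, 4196, 4132 and 4049 in mutants 1 to 4, against 4095, 4024, 3936 and 3885 in controls 1 to 4. Control 1 lay among the mutants and the other 3 controls below them. Pcna averaged 4116 ± 63.4 in mutant and 3985 ± 93.1 in control kidneys, a difference of 0.047 on the log2 scale (SE 0.029, adjusted p = 0.756). The genome holds pseudogenes named after Pcna and after Tyms, Ccnb1 and Ccnb2, and the handling of reads shared with them was not stated. Rrm1 and Rrm2 encode the large and small subunits of ribonucleotide reductase, and Tyms thymidylate synthase. Their log2 fold changes were 0.011, -0.027 and 0.0031.

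Among the S phase cyclins and their kinase, Ccne2 had the lowest fold change of the 40 genes. Ccne2 (chr4:11191351-11204779), 1 of the E-type cyclins of S phase entry, stood at 545, 504, 538 and 517 in mutants 1 to 4, against 549, 535, 563 and 562 in controls 1 to 4. Mutants 1 and 3 lay above control 2, so the groups overlapped. It averaged 526 ± 19.1 in mutant and 552 ± 13 in control kidneys, a difference of -0.071 on the log2 scale (SE 0.047, adjusted p = 0.774). Its relative Ccne1 had a log2 fold change of 0.031 with the widest spread of the 40 genes, at 868 to 977 in mutants and 807 to 1004 in controls. Values for Ccna2, the cyclin of S phase and G2, were 2729 to 2902 and 2803 to 3012 (log2 fold change -0.026), and those for Cdk2, the kinase partner of the E-type cyclins, 1088 to 1138 and 1081 to 1137 (0.015).

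The genes of mitotic entry were the group with most negative fold changes, 5 of 7, none of them called. Without mutant 3 the count was 2 of 7 (Ccnb1 and Aurka). Ccnb1 (chr13:100778650-100786570), the main mitotic cyclin, stood at 2445.5, 2324, 2293 and 2425 in mutants 1 to 4, against 2536, 2284.5, 2516 and 2428 in controls 1 to 4. Control 2 was the lowest of all 8 libraries. Its log2 fold change was -0.041 (SE 0.041, adjusted p = 0.860). Ccnb1 lies 2.42 Mb from Foxd1, the gene whose promoter drives Cre in these mutants. Cdk1 (chr10:69335146-69352938), the kinase that cyclin B activates, had the smallest spread of the 40 genes, at 2128, 2081, 2061 and 2102 in mutants, against 2085, 2049.9, 2112 and 2093 in controls. It averaged 2093 ± 28.5 in mutant and 2085 ± 26.0 in control kidneys, a log2 fold change of 0.0055 with a 95% interval from -0.059 to 0.070.

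Aurka (chr2:172356190-172370535), a kinase of the spindle poles, stood at 833, 755, 768 and 749.7 in mutants, against 848, 814, 766 and 772 in controls. Mutant 1 and control 1 were highest in their groups. Its log2 fold change was -0.043 (SE 0.050, adjusted p = 0.891). Foxm1 (chr6:128362967-128376146), a transcription factor of mitotic genes, stood at 1138, 1211, 1199.7 and 1131 in mutants, against 1132, 1152, 1165.5 and 1169 in controls. Both its highest and its lowest value were in mutants, and its log2 fold change was 0.019 (SE 0.037, adjusted p = 0.945). Ccnb2, a second B-type cyclin, Cdc25c, a phosphatase that activates Cdk1, and Plk1, the polo kinase, had log2 fold changes of -0.0026, -0.011 and -0.021.

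Genes of the chromosomes, spindle and cytokinesis include the proliferation marker Mki67, which encodes the Ki-67 protein that coats mitotic chromosomes. Mki67 (chr7:135689784-135716361) stood at 7673, 8553.5, 8314 and 8079 in mutants 1 to 4, against 7467.5, 7912, 8359 and 8245 in controls 1 to 4. The ranges lay over each other, with mutant 2 highest and control 1 lowest. It averaged 8155 ± 375 in mutant and 7996 ± 400 in control kidneys, a log2 fold change of 0.029 with a 95% interval from -0.067 to 0.12 (adjusted p = 0.917).

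Top2a (chr11:98992943-99024189), the topoisomerase that untangles sister chromatids, stood at 9047, 9680.2, 9287 and 9001 in mutants, against 8906, 8679, 8947 and 9047 in controls. Mutants 2 and 3 lay above all controls, while mutants 1 and 4 overlapped with control 4. Its log2 fold change was 0.057 (SE 0.031, adjusted p = 0.697). Tpx2 (chr2:152847964-152895321), a spindle assembly factor, stood at 3001, 2947, 2920.2 and 3007 in mutants, against 2997, 2871, 2861 and 2915.5 in controls (log2 fold change 0.029, SE 0.030, adjusted p = 0.871). Control 1 lay among the mutants. The motors Kif11 and Kif23, the microtubule protein gene Nusap1, and Aurkb and Birc5 of the chromosomal passenger complex had log2 fold changes from -0.0071 (Kif11) to 0.042 (Aurkb). Of the 8 genes in the group 7 had a positive fold change, beside 51.9% of all tested genes and 56.4% of those in the same range of level. Leaving out 1 library, the count ran from 5 (without mutant 2, mutant 3 or control 4) to 8.

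The kinetochore, checkpoint and mitotic exit genes showed the same overlap of groups. Ube2c (chr2:164769898-164778822), the ubiquitin-conjugating enzyme of the anaphase-promoting complex, stood at 1802, 1695, 1708 and 1727 in mutants 1 to 4, against 1790.5, 1601, 1714 and 1674.5 in controls 1 to 4. Mutant 1 and control 1 were highest. Its log2 fold change was 0.033 (SE 0.041, adjusted p = 0.895). Exons of Ube2c overlap those of the muscle gene Tnnc2 on the opposite strand. Tnnc2 was highest in mutant 2 (43.7) and control 2 (71.3), the libraries in which Ube2c was lowest of each group. Control 2 held the lowest value of 12 of the 40 genes, Ube2c among them, and a link to Tnnc2 was not tested. The remaining genes were Cenpa, Cenpe, Cenpf and Ndc80 of the kinetochore, Bub1 and Bub1b of the spindle checkpoint, and Cdc20, the activator of the anaphase-promoting complex. Their log2 fold changes ran from -0.0175 (Cenpa) to 0.031 (Cenpf). Cenpf ran from 3109 to 3214 in mutants and 2816 to 3334 in controls, and Cenpe from 2678 to 2778 in mutants and 2552 to 2995 in controls, so the controls spread more widely in both.

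**Figure D2:**
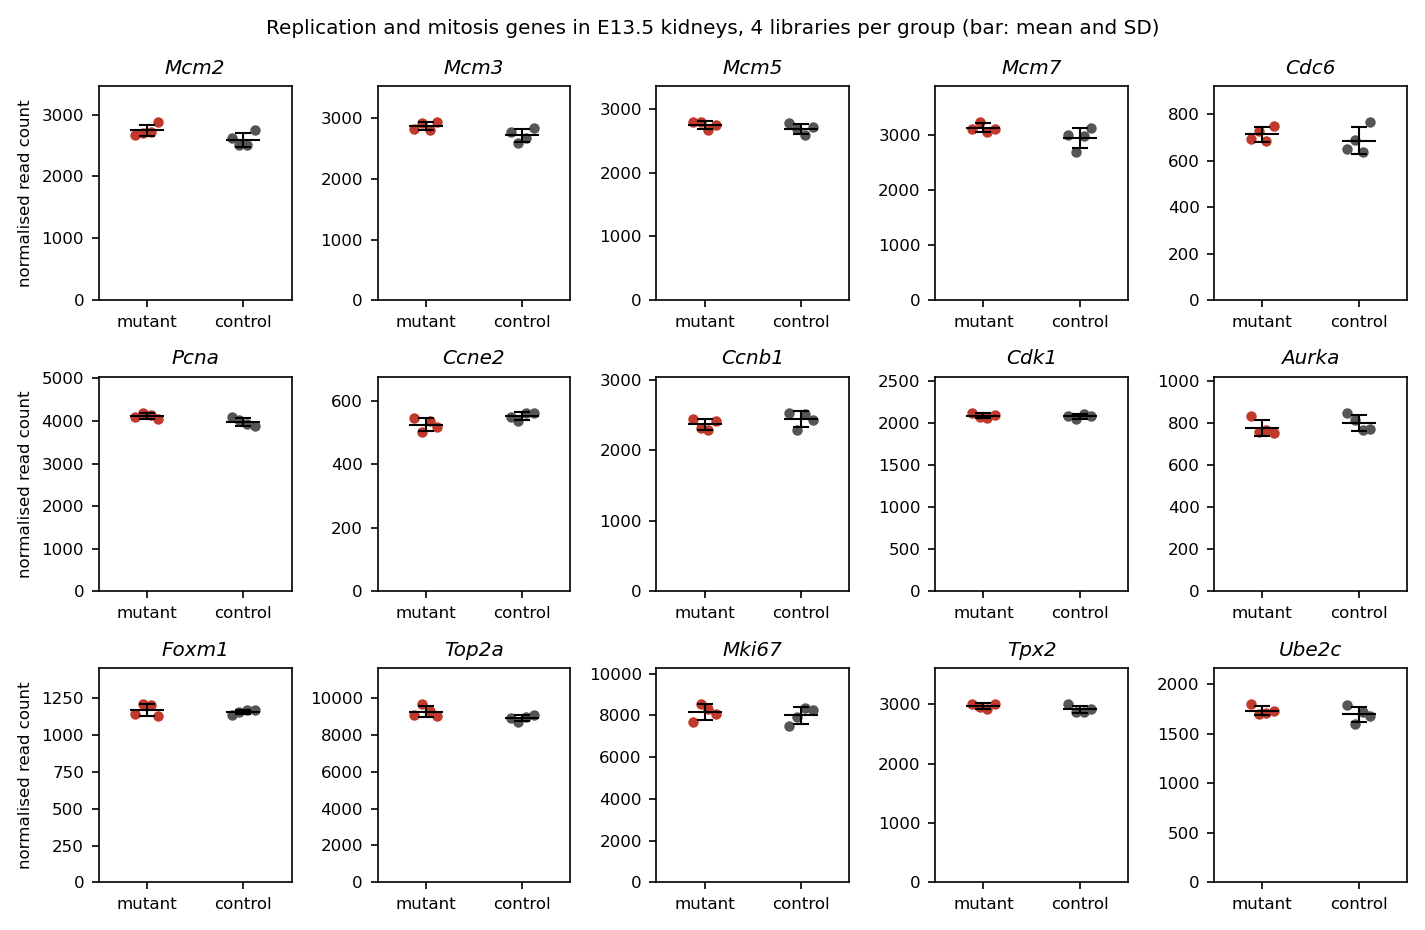
Normalised read counts of 15 of the genes in mutant (left) and control (right) kidneys, 1 point per library, with mean and SD (n = 4 each) and axes from 0. In each of the 15 panels the points of the groups overlap.

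Compared per length, the genes differed in level by over an order of magnitude within each group. Levels were set per kb of the union of annotated exons (GENCODE M21, GRCm38). Pcna was highest, at 1715 ± 26.4 normalised counts per kb in mutant and 1660.4 ± 38.8 in control kidneys (SD, n = 4 each). Top2a had 1027 ± 34.5 in mutant and 987 ± 17.3 in control kidneys and Rrm2 had 989 ± 39.8 and 1007 ± 17.9. By this length Top2a came next in mutants and Rrm2 in controls, and the ranges of mean ± SD of Top2a and Rrm2 overlapped within each group. Cdc25c was lowest, at 72.2 ± 4.61 in mutant and 72.7 ± 3.67 in control kidneys.

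Within the licensing group, the 6 MCM genes ran from 394 per kb (Mcm2) to 886 (Mcm4) in mutants and from 373 (Mcm2) to 879.6 (Mcm4) in controls. Gins2 (115 and 111), Cdc6 (136 and 131) and Cdt1 (198 and 199) lay below all of them in both groups. The exon union joins the exons of all transcripts, and for Mcm2 it is 6956 bases, against 3371 bases for the transcript with the longest coding part. Per kb of the transcript with the longest coding part, a measure chosen after seeing the data, the MCM genes ran from 812 (Mcm5) to 1391 (Mcm6) in mutants and from 769 (Mcm2) to 1365 (Mcm6) in controls. Pcna stayed highest at 2711 and 2625, and Gins2 was lowest at 120.4 and 117. The rank after Pcna changed with the length used. Ube2c came next in both groups (1792 and 1753), then Top2a (1772 and 1704), with Rrm2 well below Top2a (1249 and 1272).

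**Figure D3:**
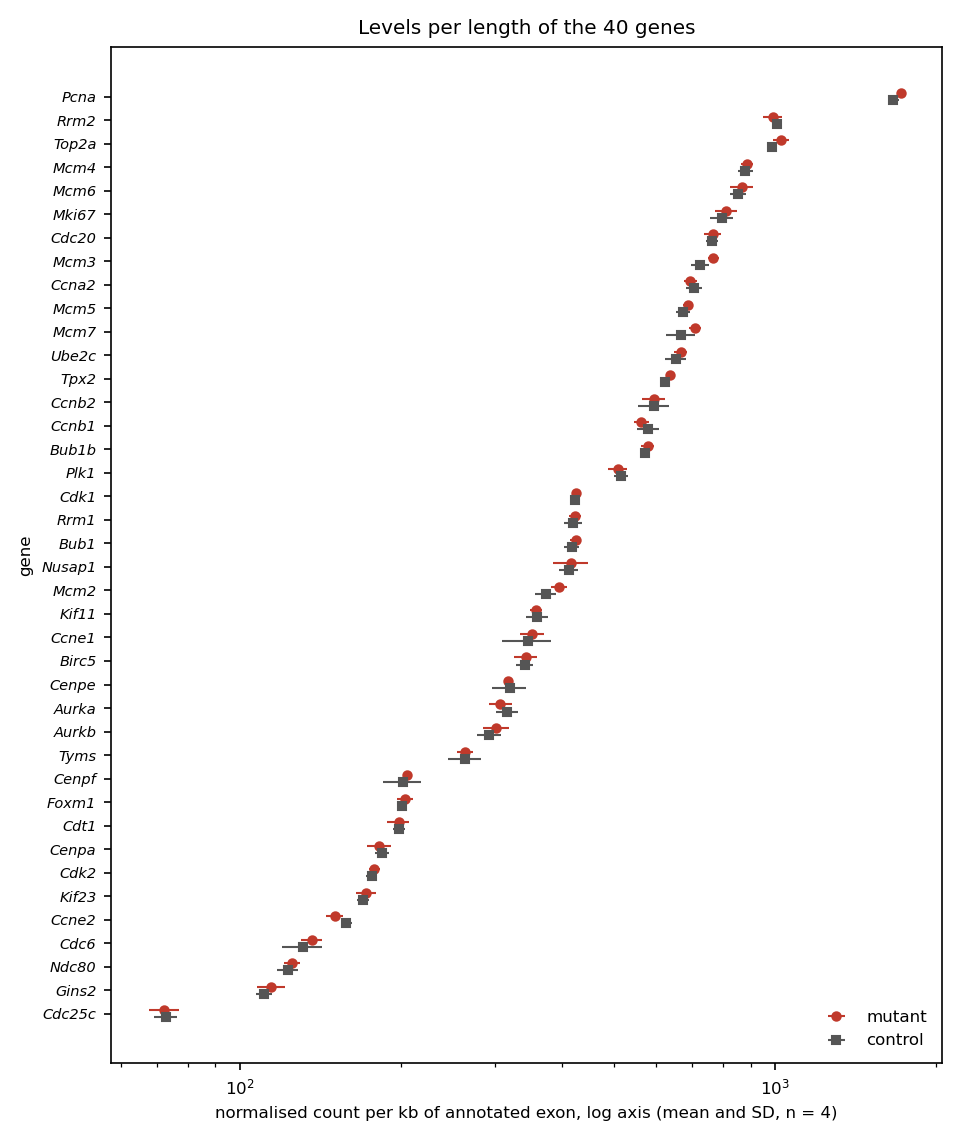
Mean normalised count per kb of annotated exon (log axis) with SD for the 40 genes, mutant (circles) above control (squares), n = 4 each. The order runs from Cdc25c at 72.2 in mutants and 72.7 in controls to Pcna at 1715 and 1660.4, and the pairs lie close together.

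Differences between libraries of a group were as large as those between groups. Mean deviations of the 40 genes from each gene's mean over all 8 libraries, on the log2 scale, were 0.018, 0.021, -0.014 and 0.0049 in mutants 1 to 4, against -0.011, -0.030, -0.0012 and 0.012 in controls 1 to 4. Mutants 1 and 2 were highest and control 2 was lowest, and mutant 3 lay below 3 of the 4 controls. Mutant 2 had the highest value of 10 of the 40 genes, and control 2 the lowest of 12. Of the 17 replication and S phase genes, 13 lay above their mean in each of mutants 2 and 4, against 14 in control 4 and 1 in control 2, where 0 of the 9 licensing genes did. The muscle markers were highest in mutant 2 among mutants and in control 2 among all 8 libraries. Without control 2 the median log2 fold change of the 40 genes was 0.010, against 0.016 with all libraries, and without both libraries numbered 2 it was 0.0018. With a skeletal muscle score as a covariate it was 0.016.

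The 2 classes did not vary as a single block across libraries. The mean deviation of the 17 replication and S phase genes was 0.0031, 0.028, -0.012 and 0.028 in mutants 1 to 4, against -0.026, -0.040, -0.021 and 0.041 in controls 1 to 4. That of the 23 mitosis genes was 0.029, 0.015, -0.015 and -0.012 in mutants, against 0.0005, -0.022, 0.014 and -0.0096 in controls. Mutant 4 and control 4 were high for replication and low for mitosis genes, and control 3 the other way round. In both classes the values of mutants and controls overlapped.

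**Figure D4:**
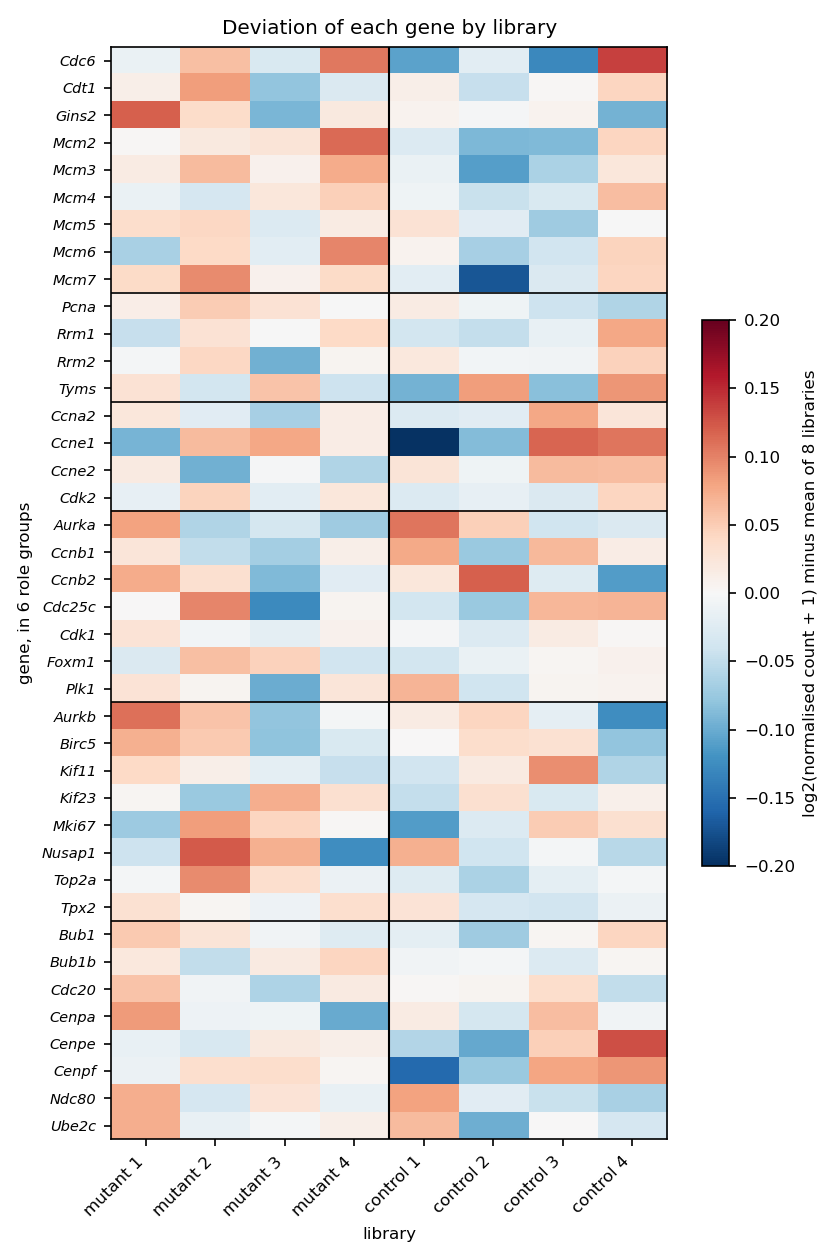
Deviation of log2(normalised count + 1) from the mean of the 8 libraries for the 40 genes (rows, in 6 role groups) in 4 mutant and 4 control libraries (columns). Control 2 is below the mean for all 9 licensing genes, and no block of genes separates the groups.

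The median log2 fold change of the 40 genes was 0.016, beside 0.0037 for all tested genes, and 28 of 40 were positive (70%), beside 51.9% of all tested genes and 56.4% of those in the same range of level. Of 57 listed replication genes outside the 40, 57 were tested and 0 were called by limma, edgeR or DESeq2, with an unadjusted p under 0.05 in 4, 3 and 2, where 8.70%, 8.76% and 6.68% of all tested genes had one. Their median log2 fold change was 0.033, 41 were positive, and all 57 intervals lay within 1.25-fold. Of 96 listed symbols of mitosis genes, some of them older and newer names of 1 gene, 89 were in the table and tested, and 0 were called by any of the 3 tools, with an unadjusted p under 0.05 in 2, 3 and 2. Their median was 0.017, 56 were positive, and 86 of the 89 intervals lay within 1.25-fold. The 3 wider ones, named after their values were seen, reached 1.37-fold for Pttg1 (with a lower bound of 0.755-fold), 1.28-fold for Cdkn3 and 1.27-fold for Ncapd2.

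Mcm10, an initiation factor of the helicase, had the smallest p of the replication list. It stood at 743, 769, 724 and 756 in mutants 1 to 4, against 699, 691, 677 and 706 in controls 1 to 4, with all mutants above all controls (log2 fold change 0.11, SE 0.040, adjusted p = 0.410). Next came Clspn, a replication checkpoint adaptor (0.11, adjusted p = 0.472), Pold3, a polymerase delta subunit (0.15, adjusted p = 0.537), and Dnmt1, the maintenance DNA methyltransferase, named after its values were seen (0.080, adjusted p = 0.549). Cdc45, a partner of the MCM ring and also named after its values were seen, was higher in all 4 mutants than in all 4 controls, at 627 to 644 against 570 to 616 (569.7 and 616.1), and its log2 fold change was 0.093 (adjusted p = 0.582).

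Among the other mitosis genes Cenpq, of the inner kinetochore, stood at 476 to 518 in mutants and 427 to 463 in controls, with no overlap (log2 fold change 0.15, adjusted p = 0.377). Zwint, of the outer kinetochore, stood at 1524 to 1623 and 1603 to 1754 (log2 fold change -0.092, adjusted p = 0.521), and Depdc1a stood at 653 to 736 and 707 to 770.2 (log2 fold change -0.11, adjusted p = 0.582). The chromokinesin gene Kif4, named after its values were seen, was the other gene of that list without overlap, at 1071 to 1097 in mutants and 1103 to 1272 in controls (log2 fold change -0.096, adjusted p = 0.629). Groups that did not overlap were thus found for 2 of 57 and 2 of 89 genes, beside 5.31% of all tested genes.

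**Figure D5:**
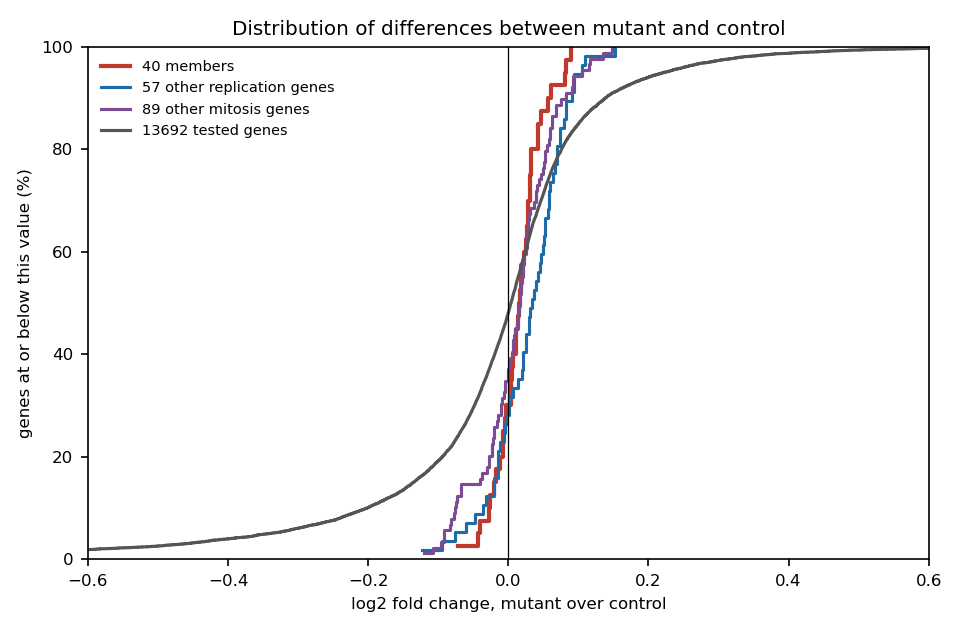
Cumulative share of genes (percent) by log2 fold change of mutant over control for the 40 genes, 57 other replication genes, 89 other mitosis genes and all 13692 tested genes. The curve of the 40 genes spans -0.071 to 0.089, and those of the other replication and mitosis genes each span -0.12 to 0.15.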

How the data were processed

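Poly(A)-selected RNA of E13.5 kidneys was sequenced from 500 ng of RNA per library, per the labels' protocols. The submitters' processing notes list mm10 (GRCm38), DESeq2 1.4.5, TopHat2 2.0.12 and HTSeq. The annotation was not stated in the sources used here. The strand setting was not stated either, but the name of the deposited data holds "Unstr", which may stand for counting without strand. The authors deposited 1 table whose per-library signal values are normalised read counts, per the file headers. It also holds the authors' fold change as a ratio of means, its log2, and raw and adjusted p-values, per the file headers. Dividing by the lowest non-zero value in each library gave whole reads for 100% of deposited values (within 0.01 read).

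Values were tested as log2(value + 1) for 13692 genes with a mean of at least 10, in R 4.3.3 (limma 3.58.1, trend on intensity), genotype as the single term, two-sided, threshold 0.05 after Benjamini-Hochberg adjustment. edgeR 4.0.16 and DESeq2 1.42.0 on recovered reads were alternatives, as the deposited values are not counts. Members, lists and alternatives were chosen with earlier results of these data known. Genes given in every library are Mki67, Top2a, Pcna, Mcm2, Ccnb1, Cdk1, Foxm1 and the 12 members with the smallest unadjusted p. In the lists, the 3 smallest p are named. Fits were tested on simulated data, with a rule for passing that covered large changes and false calls only, not small changes. No 2 libraries of a group agreed within counting noise (chi-square over its degrees of freedom, 2.89 to 11.0). Each was taken as 1 sample, which this spread does not show, as it may be technical. Positions, lengths and overlaps are from GENCODE M21, promoters from RefSeq GRCm38.p6.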

Additional observations from a re-analysis of the deposited data

Results flagged for a closer look

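Of 82 groups of 4 values, for the 40 genes and Smo, 3 held a library far from the other 3, where chance gives about 4.1. Gins2 was 432.5 in control 4, against 461 to 464 in the other controls. Cdk2 was 1137 in control 4, against 1081 to 1091 in the other controls. Plk1 was 1050 (1049.6) in mutant 3, against 1129 to 1145 in the other mutants.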

How the results depend on the processing

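The call of none of the 40 genes held in all 19 alternatives, with a smallest adjusted p of 0.221 (without control 4), and so did that of none of the other replication and mitosis genes. The median log2 fold change of the 40 genes ran from 0.0018 to 0.024 over the alternatives and from 0.0067 to 0.0242 leaving out 1 library. Smo kept its call throughout (-2.08 to -2.03 leaving out 1 library). The number of genes called of all tested was 78 and moved to 214 by DESeq2, 29 without controls 1 and 2, 2 without both libraries numbered 2, and 18 to 185 leaving out 1 library. With the sample number as a replicate block it was 232, and 0 of the 40 genes were called (smallest adjusted p = 0.341). Same-numbered libraries deviated together with correlations of 0.325, 0.287, 0.294 and 0.0635, mutants 1 to 3 correlated best with their own number and mutant 4 with control 3 (0.101), and as 1 pair was under 0.1 the numbers were not taken to pair the samples. The median level of the 40 genes in controls was 414 per kb of exon and 579 per kb of the transcript with the longest coding part. The fold change of 23 of the 40 genes changed sign in at least 1 alternative, in 65 of 760 values, none past 0.0965 in size, and the cause was not tested. By edgeR and DESeq2, Tyms turned to -0.0010 and -0.0001. Without controls 1 and 2, Mki67 turned to -0.0270, Mcm4 to -0.0103, Rrm1 to -0.0254, Tyms to -0.0008, Ccne1 to -0.0965, Ccnb2 to 0.0668, Cdk1 to -0.0067, Aurka to 0.0124, Bub1 to -0.0121 and Cenpf to -0.0682. Without both libraries numbered 2, Mcm6 turned to -0.0003, Rrm1 to -0.0107, Ccne1 to -0.0091, Ccnb2 to 0.0254, Cdk2 to -0.0003, Bub1 to -0.0024 and Nusap1 to -0.0359. With the muscle score, Mcm4 turned to -0.0010, Tyms to -0.0006 and Ccnb2 to 0.0229. Leaving out 1 library, log2 fold changes ran from -0.0187 to 0.0347 for Birc5, -0.0401 to 0.0366 for Ccnb2, -0.0301 to 0.0745 for Ccne1, -0.0153 to 0.0248 for Cdc20, -0.0458 to 0.0293 for Cdc25c, -0.0027 to 0.0128 for Cdk1, -0.0342 to 0.0197 for Cdt1, -0.0486 to 0.0131 for Cenpa, -0.0433 to 0.0336 for Cenpe, -0.0156 to 0.0655 for Cenpf, -0.0281 to 0.0226 for Kif11, -0.0040 to 0.0452 for Kif23, -0.0032 to 0.0333 for Mcm4, -0.0017 to 0.0521 for Mcm6, -0.0039 to 0.0575 for Mki67, -0.0250 to 0.0577 for Nusap1, -0.0377 to 0.0083 for Plk1, -0.0028 to 0.0386 for Rrm1, -0.0457 to 0.0004 for Rrm2 and -0.0281 to 0.0332 for Tyms. Depth limits these values too, since counting error alone gives an SD of 0.0152 to 0.0766 on the log2 scale, at or over the within-group SD in 6 of the 40 genes.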
